A study of Mus musculus with 134 samples.

Results

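Cytoplasmic RNA recovered in SET-seq was compared with the RNA of whole cells, in 4 expression libraries of the 134 samples of the series. The members were chosen by their labels. They are 2 SET-seq libraries of 10000 cells, which carry no antibody in their labels, and 2 ligation-based RNA-seq libraries. All are labelled as untreated ES-E14TG2a cells, a mouse embryonic stem cell (mESC) line of the 129/Ola strain grown in serum with LIF. In SET-seq the cells were lysed with a mild detergent, the nuclei were bound to concanavalin A beads, and oligo-dT primed cDNA of the RNA left in the supernatant was tagmentated in mRNA/cDNA hybrids. In the ligation-based libraries, poly-A RNA of whole cells was fragmented, copied with random primers and ligated to adaptors. The 2 groups therefore differ in the RNA fraction, in the library chemistry, in read length and in the sequencer, and these cannot be told apart in a direct comparison. For this reason 4 further libraries served as a second reference. They were made in vitro from whole-cell total RNA by the same oligo-dT priming and tagmentation for 5 min at 37 °C, with 2 libraries from the test of tagmentation conditions and 2 from the test of RNA amounts (300 ng). These 4 and the ligation-based pair are the 6 whole-cell libraries compared below.

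In mouse cells, mRNAs are spliced, capped and given a poly-A tail in the nucleus and then exported to the cytoplasm, where ribosomes translate them. Some RNAs stay behind. Long noncoding RNAs (lncRNAs) such as Malat1 are kept in nuclear bodies, and mRNAs of many splicing regulators keep introns and wait in the nucleus as a reserve. In the cytoplasm, mRNAs of secreted and membrane proteins are translated at the endoplasmic reticulum (ER).

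Expression is given as RPKM, the counts scaled to exon length and to library total, with the precursor rRNA gene Rn45s left out of the totals. Differences are log2 fold changes of SET-seq over the other group with their standard errors (SE), from edgeR with n = 2 libraries a group. A gene was called changed when its adjusted p was below 0.05 and its fold change above 2. The SET-seq libraries held 7066108 and 5520202 counts, the ligation-based libraries 14286607 and 14184697, and the in vitro libraries 1178008 to 17042569. Rn45s took 19.6% and 14.3% of the counts in SET-seq, 1.54% and 1.96% in ligation-based RNA-seq and 17.4% to 36.0% in vitro.

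The 2 SET-seq libraries differed more than 2-fold at 11.7% of genes, against 0.753% for the 2 ligation-based libraries and 3.33% and 4.34% for the in vitro pairs. The chi-square per degree of freedom was 11.1 for SET-seq, 1.98 for ligation-based RNA-seq, 2.5 for the 37 °C pair and 15.1 for the 300 ng pair, so that all pairs differed beyond sampling noise. Hprt went against the label in the SET-seq and ligation-based libraries. It encodes a purine salvage enzyme for which the ES-E14TG2a line is known to be deficient, yet the 2 SET-seq libraries held 66.2 and 125 CPM (counts scaled to the library total) of it and the ligation-based libraries 184 and 181. All 28 in vitro libraries held at most 1.29 CPM. The cell stock and the fraction thus cannot be told apart for a single gene in the in vitro comparison. Results are also given for 4 SET-seq libraries of 10000 cells whose nuclei went into H3K4me3 or H3K27me3 profiling, in place of the 2 without antibody. Their depth was 1440010 to 4347796 counts. The study describes the pair made for each tagmentation condition as biologically independent. For the other pairs the labels name no separate cultures, so the p-values measure the spread between these libraries, which may be technical.

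The libraries carried the markers of mESCs. The summed RPKM of 25 pluripotency genes was 6995 and 6235 in SET-seq, 4770 and 4918 in ligation-based RNA-seq and 6341 to 7529 in vitro. Summed markers of primitive endoderm reached 6.83 at most over these 8 libraries and those of fibroblasts 6.59. Summed markers of trophoblast were 74.2 and 65.5 in SET-seq, 43.6 and 43.0 in ligation-based RNA-seq and 37.8 to 48.4 in vitro. Krt8, an epithelial keratin, led the sum in SET-seq with 53.4 and 47.2 RPKM. Summed 2-cell-like genes were 36.5 and 55.9 RPKM in SET-seq, 104 and 101 in ligation-based RNA-seq and 34.9 to 59.3 in vitro. In the SET-seq libraries of 10000 cells with an antibody they were 131 to 149. The part of these markers in the differences was not tested.

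Against ligation-based RNA-seq, 13035 genes were tested. In SET-seq 2928 of them were higher (22.5%) and 3365 lower (25.8%), 48.3% in all, with a median log2 fold change of -0.08 over all genes. Against the in vitro libraries, 2500 of 12631 genes were higher (19.8%) and 1846 lower (14.6%), 34.4% in all, with a median of 0.15. By the adjusted p alone, without the fold threshold, 69.6% and 56.2% of the genes passed. With the 4 antibody libraries in place of the 2, ligation-based RNA-seq gave 2268 higher and 1666 lower genes of 11280, and the in vitro libraries gave 2353 and 2004 of 11673. With library totals alone as scaling, 2282 genes were higher and 4089 lower than in ligation-based RNA-seq, and the median of all genes moved to -0.35, while it was 0.04 against the in vitro libraries. The comparisons share the 2 SET-seq libraries, so a gene called in both is not independent evidence of a difference.

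The genes lowest in SET-seq against both references included Snrnp70, Rbm25, Zc3h13 and Atrx, which encode nuclear proteins, and Sptbn1, Lima1 and Ktn1, which do not. There were 357 genes called lower in both comparisons that also met the conditions for naming, an RPKM of at least 10 in each library of the higher group among them, and 9 of the 10 with the largest smaller change are described. These genes were chosen for both differences, so their folds describe them.

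Snrnp70, a protein of the U1 splicing particle, had 6.35 and 7.73 RPKM in SET-seq against 130 and 125 in ligation-based RNA-seq and 75.7 to 97 in vitro. The groups did not overlap, which was a condition for naming. By edgeR, the log2 fold changes were -3.92 ± 0.13 (SE) against ligation-based RNA-seq (adjusted p = 0.000137) and -3.50 ± 0.18 against the in vitro libraries (adjusted p = 6.25e-09). The 4 antibody libraries held 4.60 to 8.13 RPKM. Rbm25, another splicing factor, had 6.74 and 13.7 RPKM in SET-seq, 136 and 132 in ligation-based RNA-seq and 52.3 to 177 in vitro. Its antibody libraries reached 27.6 to 32.1, higher than the 2 without antibody and below the 6 whole-cell libraries compared, though the lowest of all 28 in vitro libraries had 22.6. Zc3h13 belongs to the complex that writes m6A onto RNA. It had 1.94 and 1.68 RPKM in SET-seq, 30.0 and 29.3 in ligation-based RNA-seq and 35.1 to 56.6 in vitro. Atrx, a chromatin remodeller on chromosome X, had 1.82 and 4.42 RPKM, against 60.6 and 57.0 and against 11.8 to 59.9. The in vitro libraries of 300 ng came closest to SET-seq there, with 19.3 and 11.8.

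Other genes of this kind encode proteins of the cytoskeleton, the ER and metabolism. Sptbn1, a spectrin under the plasma membrane, had 2.12 and 3.05 RPKM in SET-seq, 49.4 and 50.6 in ligation-based RNA-seq and 30.1 to 46.4 in vitro. Lima1, an actin-binding protein, had 3.77 and 4.48 RPKM, against 47.4 and 43.9 and against 70.0 to 107. Ktn1, a kinesin receptor of the ER, had 3.15 and 4.50 RPKM, against 39.4 and 39.1 and against 29.9 to 104. All 3 were separated from both references without overlap, which naming required. Aldh2, a mitochondrial aldehyde dehydrogenase, had 4.19 and 3.87 RPKM, against 53.0 and 52.2 and against 33.8 to 50.3. Ddit4, a stress-induced inhibitor of mTORC1, had 1.78 and 0.753 RPKM, against 15.7 and 14 and against 25.7 to 30.0. The calls held in each of 14 alternative settings against ligation-based RNA-seq and each of 16 against the in vitro libraries, where the log2 fold changes stayed between -5.25 and -1.89.

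**Figure D1:**
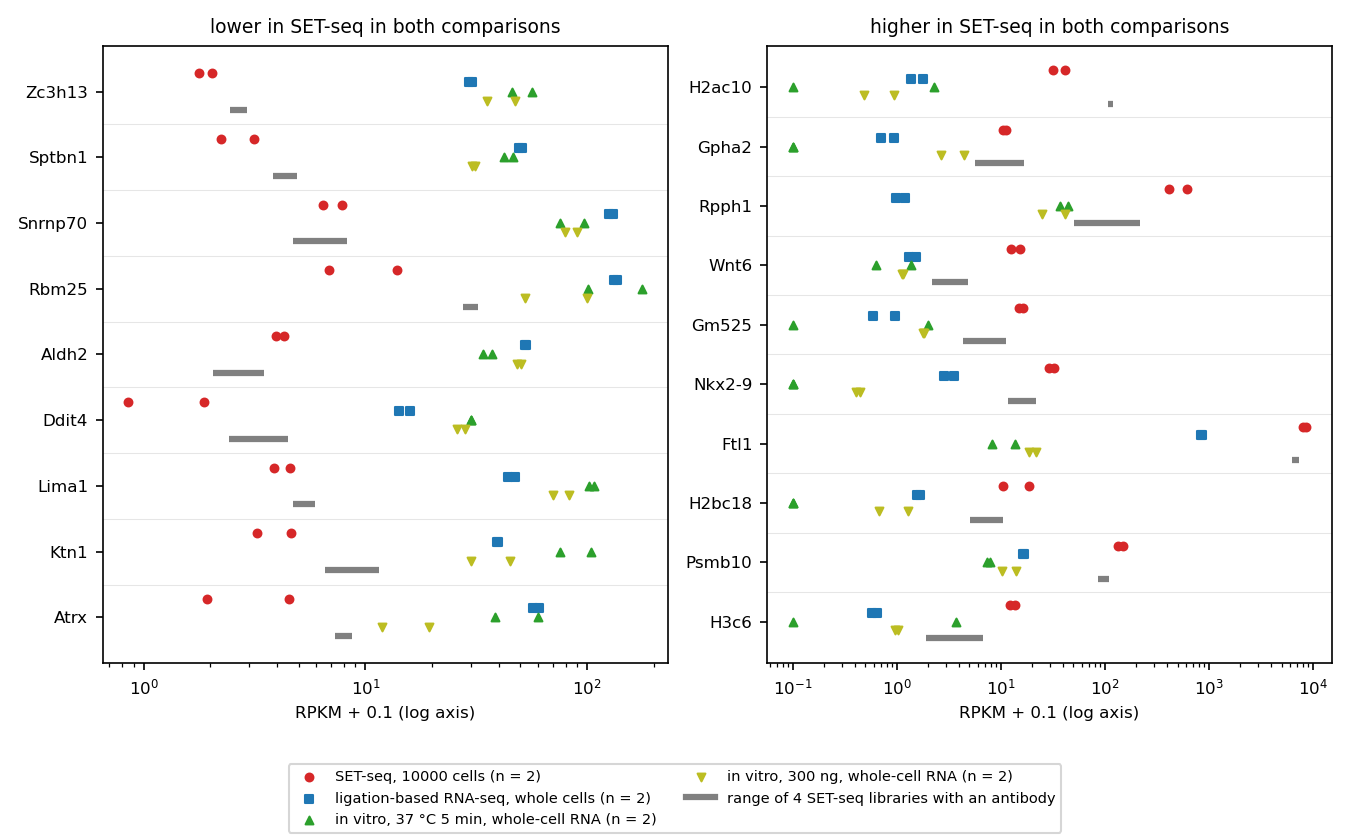
RPKM plus 0.1, on a log axis, of 9 genes lower (left) and 10 higher (right) in SET-seq in both comparisons; points are single libraries of the 4 groups and grey bars the range of the 4 antibody libraries. For Snrnp70, SET-seq lies at 6.35 and 7.73 RPKM and the whole-cell libraries between 75.7 and 130.

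Of the nuclear-retained lncRNAs, 5 of 13 tested were lower in SET-seq than in ligation-based RNA-seq and none was higher, beside 25.8% of all genes lower. The median was -0.61, and -2.17 for members with a mean RPKM of at least 1. The median exon length of the list was 6983 bases. All genes of 4 to 8 kb had a median of -0.81 and 42.0% lower, so the 38.5% of the list was not above genes of its length. Against the in vitro libraries 3 of 12 were lower (25%, beside 14.6% of all genes) and 2 higher (16.7%, beside 19.8%), with a median of 0.34. That median was -0.38 with the antibody libraries and -0.66 for members with a mean RPKM of at least 1. Malat1, the lncRNA of nuclear speckles, lies on chromosome 19 of mm9 from 5795690 to 5802672 on the minus strand as 1 exon of 6983 bases. It had 8.52 and 11.8 RPKM in SET-seq, 53.7 and 55.5 in ligation-based RNA-seq, 36.8 and 60.0 in the 37 °C libraries and 17.5 and 15.5 in the 300 ng libraries. SET-seq was below all of them. The log2 fold changes were -2.17 ± 0.14 (adjusted p = 0.000179) and -1.38 ± 0.19 (adjusted p = 2.87e-05), and the antibody libraries had 12.8 to 18.5 RPKM, which overlapped the 300 ng libraries.

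Neat1, the scaffold of paraspeckles, had 0.491 and 0.774 RPKM in SET-seq against 3.50 and 3.50 in ligation-based RNA-seq, a log2 fold change of -2.22 ± 0.18. The in vitro libraries had only 0.424 to 0.740, in the range of SET-seq, with a log2 fold change of 0.33 ± 0.22 (adjusted p = 0.225). Neat1 was thus low in all libraries made by tagmentation, whether from the cytoplasm or from whole cells. Rian, an lncRNA of the imprinted Dlk1-Dio3 region, had 1.82 and 2.42 RPKM in SET-seq, 25.4 and 27 in ligation-based RNA-seq and 2.01 to 6.67 in vitro. Its log2 fold change over the in vitro libraries was -0.66 (adjusted p = 0.0263), under the fold threshold. Mirg of the same region had 2.03 and 3.74 RPKM, against 8.87 and 7.97 and against 6.12 to 15.3, and was lower in both comparisons. Firre, an lncRNA of the X chromosome that is bound to chromatin, had 1.03 and 1.45 RPKM, against 6.63 and 7.47 and against 3.15 to 7.75. It was lower in both, with log2 fold changes of -2.25 ± 0.17 and -1.86 ± 0.25.

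The third lncRNA of the Dlk1-Dio3 region, Meg3, had 6.75 and 6.09 RPKM in SET-seq, 7.82 and 8.70 in ligation-based RNA-seq and 4.24 to 7.06 in vitro, and did not pass either test. In the antibody libraries it had 1.33 to 2.30 RPKM, with log2 fold changes of -2.0 and -1.79. Kcnq1ot1, Xist, Tsix, Ftx and Miat stayed under 1 RPKM in these 8 libraries, a level that limits what can be detected at this depth. Of these, Miat was called higher in SET-seq than in vitro, where it was listed at 0 in 3 of 4 libraries, and so was Pvt1, with 2.16 and 3.84 RPKM against 0.524 to 1.95.

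Of 14 lncRNAs that are exported or host snoRNAs in their introns, 3 were higher and 2 lower than in ligation-based RNA-seq, and 3 were higher and 2 lower than in vitro. These shares, 21.4% and 14.3% each time, were near or below those of all genes. Snhg8 had 220 and 177 RPKM in SET-seq, 15.2 and 14.5 in ligation-based RNA-seq and 96.3 to 127 in vitro. It was higher than in ligation-based RNA-seq, by 4.02 ± 0.20 on the log2 scale, and by 0.94 ± 0.18 over the in vitro libraries, which is under the fold threshold. Zfas1 had 155 and 134 RPKM, against 37.6 and 36.1 and against 173 to 272. Tug1, which is found in both compartments, had 1.89 and 4.43 RPKM, against 21.5 and 20.4 and against 1.17 to 6.45.

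Of 35 splicing regulators whose mRNAs are known for introns kept in the nucleus, 22 were lower in SET-seq than in ligation-based RNA-seq (62.9%, against 25.8% of all genes) and 0 were higher, with a median of -1.47. By edgeR, 8 were lower than in vitro (22.9%, beside 14.6% of all genes) and 0 higher, with a median of -0.37 against 0.15 for all genes. With the antibody libraries the counts were 13 lower and 3 higher against ligation-based RNA-seq, with a median of -0.55, and 9 lower and 12 higher against the in vitro libraries, with a median of 0.32. The list as a whole therefore kept no direction against the in vitro libraries, while single members did. Srsf4, a serine/arginine-rich splicing factor, had 0.697 and 0.778 RPKM in SET-seq, 8.71 and 8.83 in ligation-based RNA-seq, 3.68 to 5.91 in vitro and 0.425 to 1.16 in the antibody libraries. Its log2 fold changes were -3.30 ± 0.18 and -2.48 ± 0.28. Srsf5 had 7.95 and 14.6 RPKM, against 90.2 and 91.1 and against 25.0 to 40.2, and the antibody libraries had 16.9 to 20.0. Pnisr, a speckle protein, had 4.81 and 7.59 RPKM, against 34.4 and 32.2 and against 20.5 to 43.3, with 9.24 to 11.2 in the antibody libraries. At these 3 genes all SET-seq libraries were below the 6 whole-cell libraries compared, though over all 28 in vitro libraries the lowest values were 0.875 for Srsf4, 9.26 for Srsf5 and 0.716 for Pnisr.

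Other members split by reference. Srsf1, the founding member of its family, had 6.90 and 16.5 RPKM in SET-seq and 141 and 134 in ligation-based RNA-seq, a log2 fold change of -3.32 ± 0.36. In vitro it had 4.17 to 32.4 RPKM, a log2 fold change of 0.01 ± 0.31 (adjusted p = 0.976). The mRNA of Clk1, a kinase of SR proteins, had 7.41 and 15.0 RPKM against 55.3 and 53.6 and against 6.79 to 27.5, and the antibody libraries had 37 to 52.3, close to ligation-based RNA-seq. For both genes the 2 SET-seq libraries lay within the range of the in vitro libraries. Srrm1 and Srrm2, large speckle proteins, were lower by 1.03 and 1.21 on the log2 scale than in ligation-based RNA-seq, and without SET-seq replicate 2 both missed the fold threshold, with -0.79 and -0.98.

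**Figure D2:**
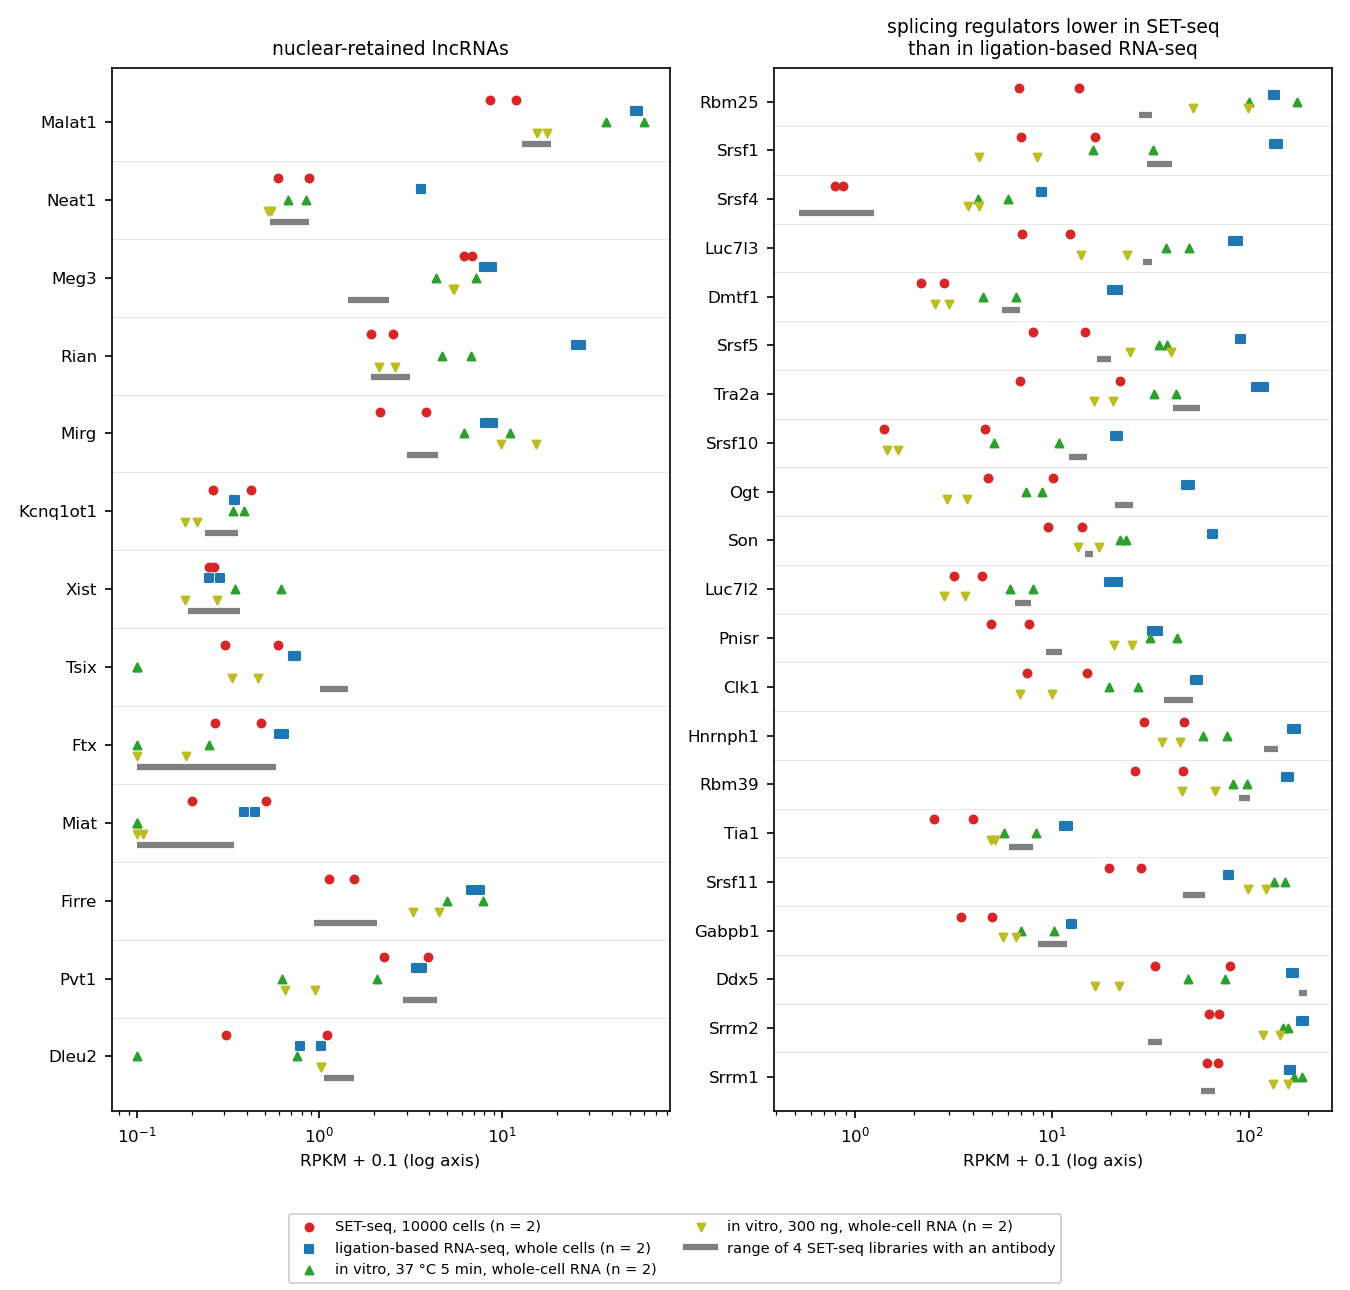
RPKM plus 0.1, on a log axis, of the 13 nuclear-retained lncRNAs tested (left) and of 21 splicing regulators called lower in SET-seq than in ligation-based RNA-seq (right); points are single libraries and grey bars the range of the 4 antibody libraries. Malat1 lies at 8.52 and 11.8 RPKM in SET-seq and at 15.5 or more in the whole-cell libraries, whereas Neat1 overlaps with the in vitro libraries.

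The mRNAs of replication-dependent histone genes are not spliced and end in a stem-loop rather than a poly-A tail, and they are made in S phase. Of 65 in the files 40 were tested. In ligation-based RNA-seq these genes were mostly near 0, so that members passed the filter on low counts through SET-seq and had to differ. That all 40 were higher than in ligation-based RNA-seq, with a median of 4.26, therefore only describes the tested members. Over the in vitro libraries 25 of 33 were higher (75.8%, beside 19.8% of all genes) and 2 lower, with a median of 2.11. With the antibody libraries 15 of 21 were higher and 1 lower, with a median of 1.62. Members near 0 in vitro, such as H2ac10 and H2bc18, passed the filter through SET-seq here too. These counts and medians therefore also describe only the tested members. The median share of their exon windows that occur elsewhere in the genome was 61.1%, and reads that map to several places were not counted. Members with identical stretches thus lack the reads from there and are uncertain as single genes.

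The stem-loop was read from the exons in the NCBIM37 genome (mm9), on the strand of the gene. The motif searched, by its letters, was 2 G, any 2 bases, 1 C, 4 T, any 1 base, 1 A, 1 G, any 2 bases and 2 C. It was found in 52 of the 57 histone genes scanned (91.2%) and in 81 of all 24943 genes (0.325%). The ends of 6 genes that are described next are shown as the feature that sets these mRNAs apart, with the 16 bases of the motif in capitals and up to 5 bases on either side.
H2ac10, chr13:23626223-23626247, plus strand: ccaaaGGCTCTTTTCAGAGCCacca
H2bc18, chr3:96074089-96074114, plus strand: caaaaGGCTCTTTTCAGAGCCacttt
H3c11, chr13:21874784-21874809, minus strand: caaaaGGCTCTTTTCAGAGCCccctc
H4c14, chr3:96066857-96066882, minus strand: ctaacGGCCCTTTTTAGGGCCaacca
H2ac8, chr13:23662532-23662557, minus strand: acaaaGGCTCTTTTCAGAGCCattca
H1f5, chr13:21871701-21871726, minus strand: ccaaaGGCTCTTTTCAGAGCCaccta
In all 6 the listed exon ends 4 to 6 bases after the motif. H2ac8 and H1f5, which were lower than in vitro, carry the motif as the other 4 do.

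H4c14, an H4 gene on chromosome 3, had 136 and 95.2 RPKM in SET-seq, 0.741 and 1.12 in ligation-based RNA-seq and 10.1 to 14.8 in vitro. Its SET-seq libraries were above the 6 whole-cell libraries, with log2 fold changes of 7.19 ± 0.39 and 3.22 ± 0.28. H2ac10 had 41.6 and 31.9 RPKM, against 1.69 and 1.28 and against 0 to 2.18, and reached 108 to 120 in the antibody libraries. H2bc18, of which 4.26% of exon windows occur elsewhere, had 18.6 and 10.3 RPKM, against 1.59 and 1.46, and was listed at 0 in both 37 °C libraries and at 1.19 and 0.576 in the 300 ng libraries. H3c11 had 30.6 and 22.3 RPKM and 1 count in the 2 ligation-based libraries, a ratio of 363 with an exact 95% interval of 64.0 to 14429 for counting error. In the in vitro comparison its log2 fold change was 2.79 ± 0.44, and 1.20 with the antibody libraries, which no longer passed. Over all 28 in vitro libraries the highest values were 48.6 RPKM for H2ac10, 20.8 for H2bc18 and 77.0 for H3c11, above their SET-seq libraries, and 46.2 for H4c14, below them.

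Both exceptions among the histone genes were high in vitro. H2ac8, an H2A gene, had 117 and 133 RPKM in SET-seq, 1.27 and 1.29 in ligation-based RNA-seq, 596 and 532 in the 37 °C libraries and 189 and 147 in the 300 ng libraries. H1f5, a linker histone gene, had 6.43 and 8.52 RPKM, 1.07 and 1.36, then 52.6 and 48.4, and 13.7 and 17.5. SET-seq thus lay between ligation-based RNA-seq and the in vitro libraries at both genes, with log2 fold changes of -1.19 ± 0.16 and -1.82 ± 0.24 against the latter.

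**Figure D3:**
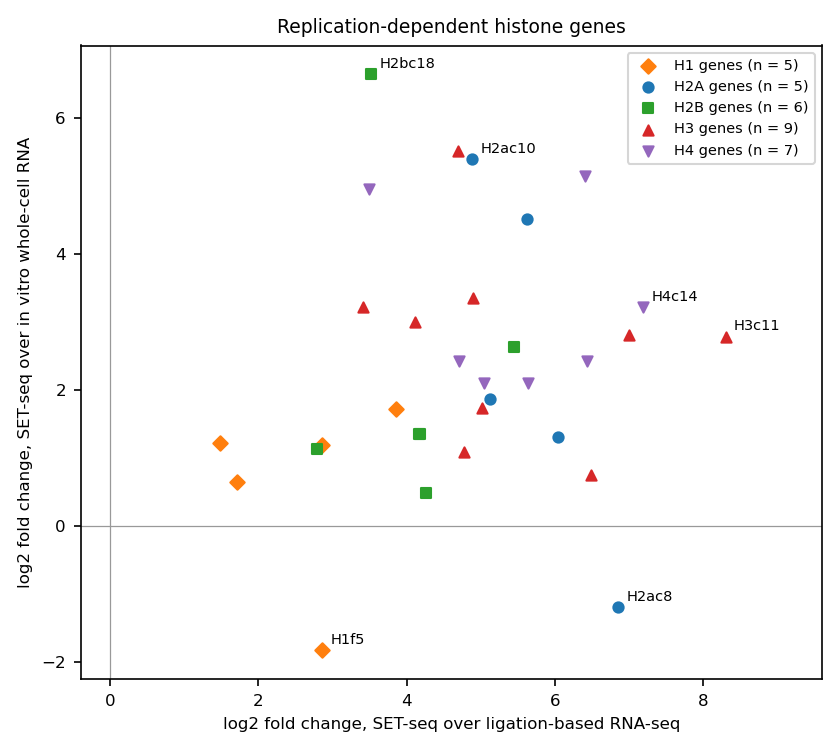
Log2 fold changes of the 32 replication-dependent histone genes tested in both comparisons, over ligation-based RNA-seq (x axis) and over in vitro whole-cell RNA (y axis), by histone class. Every gene lies right of 0 on the x axis, and H2ac8 and H1f5 lie below 0 on the y axis.

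Genes higher in SET-seq than in both references included Rpph1, Psmb10 and 3 histone genes. There were 650 genes called higher in both that met the conditions for naming. Rpph1, the RNA of RNase P, is a transcript of RNA polymerase III on chromosome 14 of mm9 from 51427122 to 51427446. It had 621 and 411 RPKM in SET-seq, 0.875 and 1.11 in ligation-based RNA-seq and 24.6 to 43.9 in vitro. The log2 fold changes were 9.25 ± 0.43 and 3.93 ± 0.25, and the antibody libraries spread from 50.4 to 219. Psmb10, a catalytic subunit of the immunoproteasome, had 151 and 133 RPKM, against 16.1 and 16.5 and against 7.31 to 14, with 86.4 to 110 in the antibody libraries. Its log2 fold changes were 3.39 ± 0.15 and 3.99 ± 0.20.

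Ftl1, the light chain of the iron store ferritin, had 8651 and 8090 RPKM in SET-seq, 837 and 851 in ligation-based RNA-seq and 8.20 to 21.5 in the 4 in vitro libraries. Over all 28 in vitro libraries it ranged from 3.19 to 59.0, below every SET-seq and ligation-based library compared here. Of the exon windows of Ftl1, 80.2% occur elsewhere and reads that map to several places were not counted, so its values are uncertain. Nkx2-9, a homeobox gene, had 32.2 and 29.1 RPKM, against 2.72 and 3.44, and was listed at 0 in both 37 °C libraries and at 0.310 and 0.339 in the 300 ng libraries. Wnt6, a Wnt ligand, had 15.1 and 12.4 RPKM, against 1.20 and 1.43 and against 0.531 to 1.28, and 2.09 to 4.75 in the antibody libraries. Gpha2, a glycoprotein hormone subunit, had 11.1 and 10.4 RPKM, against 0.846 and 0.612 and against 0 to 4.31. Gm525 had 16.4 and 14.9 RPKM, against 0.857 and 0.495 and against 0 to 1.89. H3c6 had 12.2 and 13.7, against 0.546 and 0.474 and against 0 to 3.62, and is also uncertain, with 83.1% of its windows elsewhere. Separation from both references in these 8 libraries was a condition for naming the 10 genes, so it and their folds only describe them. Members near 0 in the references, such as Gpha2 and Gm525, passed the filter on low counts through SET-seq. The calls of the 10 genes held in each alternative setting. Over all 28 in vitro libraries the highest values stayed below SET-seq for Rpph1 (260 RPKM), Psmb10 (39.9), Nkx2-9 (0.848), Wnt6 (5.15), Gpha2 (5.14) and Gm525 (3.49), but not for H3c6, which reached 44.0.

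Most ribosomal protein genes were higher in SET-seq than in ligation-based RNA-seq, and most did not pass against the in vitro libraries. Of 78, 62 were higher than in ligation-based RNA-seq (79.5%, beside 22.5% of all genes) and 5 lower, with a median of 2.46. Their median exon length was 740 bases. Of all genes under 1 kb, 70.0% were higher and 5.62% lower, with a median of 1.87. Relative to the in vitro libraries 10 ribosomal protein genes were higher (12.8%, beside 19.8% of all genes) and 2 lower (2.56%, beside 14.6%). Their median was 0.25, and -0.26 with the trend on exon length removed. With the antibody libraries 6 were higher and 20 lower, with a median of -0.60. Nearly all of them have copies in the genome. In 77 of 78, more than 5% of the exon windows of 31 bases occurred at another place as well, so that no count over members with few copies can be given.

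Rpsa, which encodes a protein of the small ribosomal subunit, had 4661 and 3964 RPKM in SET-seq and 1758 to 2767 in vitro, but 4.05 and 7.34 in ligation-based RNA-seq, and 50.9% of its windows occurred elsewhere. The prolyl isomerase gene Ppia, with 99.2%, had 1020 and 846 RPKM, then 723 to 1050, and 1.96 and 1.60. At both genes the ligation-based libraries lay far below both kinds of tagmentated library. Rpl30, with 60.4% of its windows elsewhere, was the reverse case. It had 1.41 and 0.338 RPKM in SET-seq, 9.88 and 6.66 in ligation-based RNA-seq and 0 to 0.341 in vitro. Reads that map to several places were left out by the authors, so these values are uncertain, and the part of the copies in the result was not tested.

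Respiratory chain genes encode subunits of complexes I to V and are translated in the cytoplasm. Of 79, 58 were higher than in ligation-based RNA-seq (73.4%, beside 22.5% of all genes) and 0 were lower, with a median of 1.92. Among the 37 of them with at most 5% of windows elsewhere, 26 were higher and 0 lower, with a median of 1.57. Over the in vitro libraries 27 of 79 were higher (34.2%, beside 19.8% of all genes) and 0 lower by edgeR, with a median of 0.88. Among the 37 with few copies 11 were higher, with a median of 0.60. With the antibody libraries 22 were higher and 1 lower, with a median of 0.45. The list therefore kept its direction with both references and both sets of SET-seq libraries. Its median exon length was 772 bases. Of all genes under 1 kb, 70.0% were higher and 5.62% lower than in ligation-based RNA-seq, with a median of 1.87. Over the in vitro libraries 34.2% of genes under 1 kb were higher and 6.55% lower, with a median of 0.65. The shares of the list that were higher were thus close to those of genes of its length. With the trend on exon length removed, the medians of the list were 0.61 and 0.27.

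Cox4i1, a subunit of cytochrome c oxidase without windows elsewhere, had 3458 and 2848 RPKM in SET-seq, 655 and 682 in ligation-based RNA-seq and 1473 to 1988 in vitro. Its log2 fold changes were 2.51 ± 0.18 and 0.99 ± 0.16, and the antibody libraries had 1020 to 1186 RPKM, below the in vitro libraries. Atp5g1, a subunit of the ATP synthase ring, had 1116 and 922 RPKM, against 32.4 and 41.0 and against 196 to 317, and was higher in both. Its antibody libraries had 731 to 1021 RPKM. Cox8a and Cox6b1 were higher than in ligation-based RNA-seq, by 2.92 and 2.65 on the log2 scale, and 0.92 and 0.85 over the in vitro libraries, under the fold threshold. Atp5b, the catalytic subunit of the ATP synthase, had 2039 and 1818 RPKM, against 1307 and 1323 and against 1214 to 1887, and passed in neither comparison.

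Of the proteasome subunits, 12 of 37 were higher and 3 lower than in ligation-based RNA-seq, and 11 were higher and 2 lower than in vitro. The shares higher were 32.4% and 29.7%, beside 22.5% and 19.8% of all genes, and the shares lower 8.11% and 5.41%, beside 25.8% and 14.6%. The medians were 0.51 and 0.61, and the first was -0.15 with the trend on exon length removed. Psmb4, a subunit of the proteasome core, had 819 and 714 RPKM, against 191 and 190 and against 224 to 349, and 595 to 667 in the antibody libraries. Psmd13, of the regulatory cap, had 14.6 and 18.8 RPKM against 105 and 106 and against 131 to 166. It was lower in both comparisons with the libraries without antibody, but the antibody libraries had 93.6 to 143 RPKM, in or near the range of the whole-cell libraries.

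Translation factors split in both directions. Of 35, 15 were higher and 10 lower than in ligation-based RNA-seq, and 4 were higher and 7 lower than in vitro. The 42.9% higher than in ligation-based RNA-seq stood against 22.5% of all genes, and the 28.6% lower was near their 25.8%. The 11.4% higher and 20.0% lower than in vitro stood against 19.8% and 14.6%. Eef2, the translocase of elongation, had 353 and 326 RPKM in SET-seq, 1238 and 1288 in ligation-based RNA-seq and 966 to 1732 in vitro, and 183 to 209 in the antibody libraries. It was lower in both comparisons, by 1.62 and 1.83 on the log2 scale. Eif5b, which joins the ribosomal subunits, had 8.78 and 13.6 RPKM, against 103 and 96.1 and against 32.1 to 103. Eif1, a small initiation factor, had 470 and 474 RPKM, against 66.3 and 62.9 and against 198 to 255, and was higher in both. Eef1a1, which delivers tRNAs, changed its direction with the reference. It had 5666 and 5014 RPKM, against 1413 and 1473 in ligation-based RNA-seq and 11353 to 12904 in vitro, with log2 fold changes of 2.16 ± 0.18 and -1.02 ± 0.18, and 87.3% of its windows occur elsewhere.

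Of 17 glycolysis genes, 8 were higher (47.1%, beside 22.5% of all genes) and 0 lower than in ligation-based RNA-seq, with a median of 0.87. Against the in vitro libraries 2 were higher (11.8%, beside 19.8%) and 6 lower (35.3%, beside 14.6%), with a median of -0.64. Among the 7 with few copies the first median was -0.15. With the antibody libraries 6 were higher and 2 lower than in ligation-based RNA-seq, with a median of 0.05, and 2 were higher and 13 lower than in vitro, with a median of -1.54. The rise over ligation-based RNA-seq was thus not kept with those libraries. Eno1, the enolase of glycolysis, had 1529 and 1305 RPKM, against 135 and 142 and against 2099 to 3164.

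Of 38 ER chaperones and translocon genes, 10 were higher and 11 lower than in ligation-based RNA-seq, and 5 and 4 than in vitro. The first shares, 26.3% and 28.9%, were near the 22.5% and 25.8% of all genes, and the others, 13.2% and 10.5%, were below their 19.8% and 14.6%, so that the list as a whole did not stand apart. Pdia3, a protein disulphide isomerase, had 9.93 and 20.5 RPKM in SET-seq, 295 and 280 in ligation-based RNA-seq, 43.7 to 117 in vitro and 17.4 to 24.2 in the antibody libraries. It was lower in both, with log2 fold changes of -4.00 ± 0.30 and -2.18 ± 0.22. Hsp90b1, the ER form of HSP90, was lower in both by 1.72 and 1.70 on the log2 scale. Ssr2, of the translocon, had 486 and 505 RPKM, against 282 and 295 and against 106 to 186, and was higher in both.

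Of 42 extracellular matrix and surface protein genes, 20 were lower and 3 higher than in ligation-based RNA-seq, with a median of -0.94 and 47.6% lower against 25.8% of all genes. Their median exon length was 5901 bases, and all genes of 4 to 8 kb had a median of -0.81 and 42.0% lower, close to the list. In the in vitro comparison 9 were lower (21.4%, beside 14.6% of all genes) and 7 higher (16.7%, beside 19.8%), with a median of -0.35. With the antibody libraries 18 were lower and 4 higher. Fn1, fibronectin, had 53.4 and 50.6 RPKM, against 214 and 221 and against 153 to 180, and 27.1 to 30.7 in the antibody libraries. Lamp1, a lysosomal membrane protein, had 486 and 539 RPKM, against 369 and 375 and against 170 to 184, and was higher than in vitro, by 1.63 ± 0.13 on the log2 scale.

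Of 25 pluripotency genes, 4 were higher and 8 lower than in ligation-based RNA-seq and 4 higher and 4 lower than in vitro. The shares of 16%, 32%, 16% and 16% were near those of all genes. Sox2, a core factor of pluripotency with 1 exon, had 18.1 and 24.6 RPKM in SET-seq, 322 and 308 in ligation-based RNA-seq, 119 to 191 in vitro and 48.8 to 61.6 in the antibody libraries. The SET-seq libraries were below the 6 whole-cell libraries compared, with log2 fold changes of -3.62 ± 0.15 and -2.76 ± 0.17. Trim28, a corepressor of retroelements, had 1911 and 1726 RPKM, against 904 and 961 and against 666 to 1158. It was higher in both by 1.24 and 1.15 on the log2 scale, but only 0.35 and 0.01 with the antibody libraries. Dppa5a, an RNA-binding protein of mESCs, had 2586 and 1896 RPKM, against 247 and 262 and against 2754 to 4016, and 73.7% of its windows occur elsewhere.

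Among 19 immediate early genes, whose mRNAs turn over within minutes, 3 were higher and 1 lower than in ligation-based RNA-seq. Of 18 tested against the in vitro libraries, 5 were higher and 6 lower. The first shares, 15.8% higher and 5.26% lower, stood against 22.5% and 25.8% of all genes. The others, 27.8% and 33.3%, stood against 19.8% and 14.6%. Klf6, a zinc finger factor, had 1.29 and 2.26 RPKM, against 7.35 and 7.43 and against 6.05 to 8.49, and was lower in both. Jund, a subunit of AP-1, had 17 and 15.1 RPKM, against 21.9 and 23.6 and against 112 to 149, so that it was lower in SET-seq only by the in vitro comparison, with a log2 fold change of -2.84 ± 0.18.

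Of 346 zinc finger genes named Zfp and a number, 182 were lower than in ligation-based RNA-seq (52.6%, beside 25.8% of all genes). The median was -1.24, and 22 were higher (6.36%, beside 22.5%). With the antibody libraries this fall was not kept, as 44 of 322 were lower and 24 higher, with a median of -0.26. Relative to the in vitro libraries 32 of 342 were lower (9.36%, beside 14.6% of all genes) and 54 higher (15.8%, beside 19.8%). The median of the list was 0.20, near the 0.15 of all genes. This list median was -0.25 without SET-seq replicate 2, and with the antibody libraries it was 0.90 and 146 genes were higher. Zfp62 had 0.352 and 0.719 RPKM, against 10.7 and 9.42 and against 0.583 to 6.63, and 2.29 to 4.43 in the antibody libraries. It was lower in both comparisons, but with the antibody libraries its log2 fold change over the in vitro libraries was 0.64. Zfp42, a marker of naive mESCs, had 262 and 316 RPKM, against 254 and 253 and against 158 to 206, and passed neither test.

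Small nucleolar RNAs and microRNAs lie in introns or exons of host genes, and their counts can hold reads of the host. Of 27 small nucleolar and Cajal body RNAs, 5 were higher and 10 lower than in ligation-based RNA-seq, with a median of -1.13. Snord32a had no count in SET-seq and 51 in ligation-based RNA-seq, which is at least 6.33-fold lower by a floor of 3 counts over the group. Snord104 had 104 and 92.7 RPKM, against 15.6 and 26.6 and against 82.7 to 226. Of 12 microRNA loci tested, out of 1168 in the files, 3 were higher and 3 lower than in ligation-based RNA-seq. These shares, 25% each, were near those of all genes, and the same limit of the filter holds. Mir17hg, the host gene of the miR-17 cluster, had 0.978 and 1.08 RPKM, against 11.2 and 12.1 and against 0.699 to 3.97, and Mir3064 had no count in SET-seq against 87, at least 10.8-fold lower. Mir682 had 11768 counts in SET-seq and 2 in ligation-based RNA-seq, and 71.4% of its windows occur elsewhere. Reads that map to several places were not counted, so it is uncertain as a single gene.

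**Figure D4:**
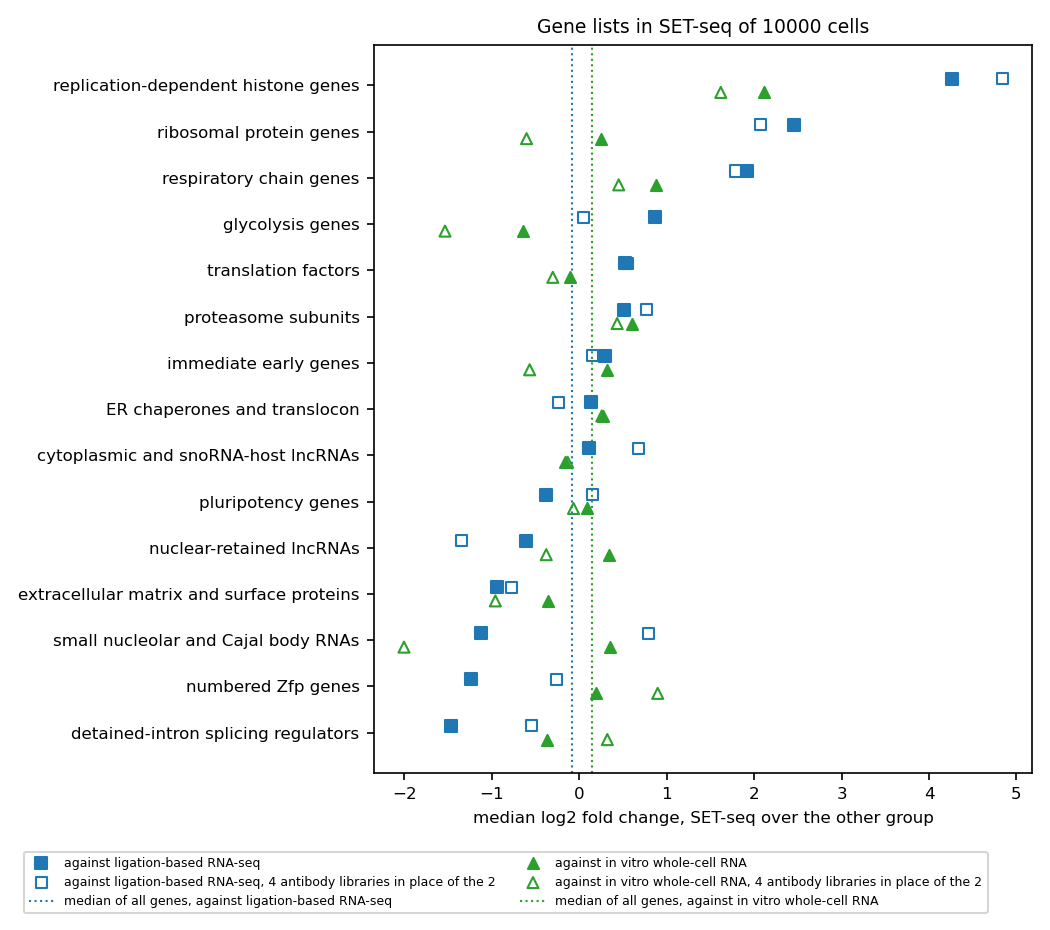
Median log2 fold change of SET-seq over ligation-based RNA-seq (squares) and over in vitro whole-cell RNA (triangles) for the 15 gene lists with over 12 tested members; open symbols use the 4 antibody libraries in place of the 2, and dotted lines are the medians of all genes, -0.08 and 0.15. Histone and respiratory chain genes lie to the right in all 4 cases, though histone genes near 0 in a reference passed the filter through SET-seq. Ribosomal protein genes lie at 2.46 and 0.25 and, with the antibody libraries, at 2.07 and -0.60.

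Transcript structure varied with the fold changes, most against ligation-based RNA-seq. The median log2 fold change was 1.87 for the 872 genes with under 1 kb of exons, of which 70.0% were higher and 5.62% lower. It was 0.94 at 1 to 2 kb, -0.06 at 2 to 4 kb, -0.81 at 4 to 8 kb and -1.11 for the 729 genes of 8 kb or more, of which 4.53% were higher and 52.1% lower. Over the in vitro libraries the same classes had medians of 0.65, 0.36, 0.14, -0.07 and -0.26. The spread from the median differences between replicate libraries was 0.21 at 4 to 8 kb and 0.24 at 8 kb or more. The -0.07 thus lay within it and the -0.26 near it. The Spearman correlation across genes between exon length and fold change was -0.51 over 13035 genes and -0.18 over 12631 genes. Genes are not independent replicates, and all points of a comparison share the same libraries. 

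Total intron length followed the same order. Genes with under 5 kb of introns had medians of 0.95 and 0.49 in the 2 comparisons, and those of 100 kb or more had -0.75 and -0.28. The Spearman correlation was -0.37 and -0.21. Within the 5069 genes of 2 to 4 kb of exons it was -0.15 against ligation-based RNA-seq, and -0.16 over 4927 genes against the in vitro libraries. For the number of exons, it was -0.24 and -0.14, and within this length class it was 0.05 and -0.07, so that the number of exons added little at a given length.

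For the GC content of the exons the Spearman correlation was 0.55 against ligation-based RNA-seq and 0.25 against the in vitro libraries. Among genes with a mean RPKM of at least 5 it was 0.53 in the first comparison, where that for exon length was -0.60. Genes with under 45% GC had medians of -1.45 and -0.36, and 61.5% of them were lower than in ligation-based RNA-seq. Genes with 55% or more had medians of 0.79 and 0.46. Under 45% GC the spread between replicate libraries was 0.46 and 0.53 in the 2 comparisons, so the -0.36 lay within it. Within the 5 classes of exon length the correlation ranged from 0.43 to 0.60 against ligation-based RNA-seq, and from 0.11 at 1 to 2 kb to 0.35 at 8 kb or more against the in vitro libraries. Genes with 50% or more of their windows elsewhere had medians of 1.15 and 0.34, against -0.11 and 0.14 for those with under 5%.

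**Figure D5:**
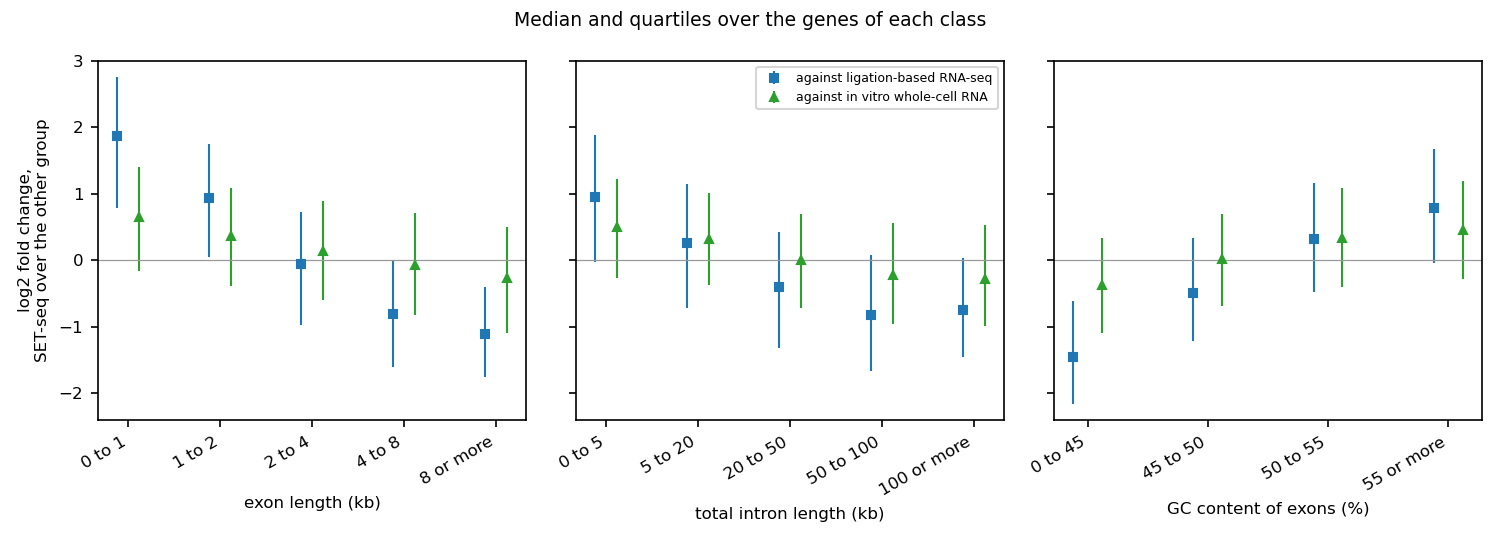
Median (symbol) and quartiles (bars) of the log2 fold change of SET-seq over ligation-based RNA-seq (squares) and over in vitro whole-cell RNA (triangles), by class of exon length, total intron length and GC content of exons. From under 1 kb to 8 kb or more of exons the medians go from 1.87 to -1.11 and from 0.65 to -0.26.

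Of the 10 largest falls from ligation-based RNA-seq, 6 were also lower than in vitro and 1, Tubb2a-ps2, was higher, and of the 10 largest rises 4 were also higher. Of 1724 genes called lower that met the conditions for naming, the 10 largest falls were BC048507, Taf15, Cdkn2a, Yes1, Nxt2, 2410141K09Rik, Aldoart1, Ddx23, Tubb2a-ps2 and Sptbn1. Taf15, an RNA-binding protein, had 1.54 and 1.96 RPKM in SET-seq, 87.5 and 82.7 in ligation-based RNA-seq and 2.15 to 2.85 in vitro. It was lower than in ligation-based RNA-seq, by 5.34 ± 0.15 on the log2 scale, but did not pass against the in vitro libraries, where the log2 fold change was -0.42 ± 0.32 (adjusted p = 0.326). Ddx23, a helicase of the spliceosome, had 4.50 and 3.23 RPKM, against 81.7 and 84.6 and against 6.09 to 18.4, and was lower in both. BC048507 had 0 and 0.707 RPKM, against 26.7 and 27.2, and was at 0 in the 4 in vitro libraries. Taf15 and BC048507 were thus low in all of these tagmentated libraries, and Sptbn1 only in the cytoplasmic ones. Over all 28 in vitro libraries Taf15 had a median of 2.51 RPKM but reached 34.7, and BC048507 reached 1.87. Tubb2a-ps2 was called higher than in vitro (adjusted p = 0.0300) on 3 and 9 counts in SET-seq and 0 to 4 in vitro. Cdkn2a, a cell cycle inhibitor, had 0.465 and 0.372 RPKM, against 12.6 and 13.5 and against 1.38 to 4.83, and was lower in both.

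Of 1669 genes called higher that met the conditions, the 10 largest rises included Gm5148, Gm15501, Ubb-ps, H3f3c, Rpsa, Ppia, Rpph1, H3c11 and Rps28. In all of these but Rpph1, 36.0% or more of the windows occur elsewhere, against 3.33% in Rpph1. Gm5148 had 976 and 778 RPKM in SET-seq, 935 to 1747 in vitro and 1 count in both ligation-based libraries together. The ratio of 30112 to ligation-based RNA-seq has an exact 95% interval of 5403 to 1189480 for counting error. In the in vitro comparison Gm5148, Gm15501, H3f3c, Ppia and Rps28 stayed under the fold threshold, and Ubb-ps, Rpsa, Rpph1 and H3c11 were higher.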

How the data were processed

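Bulk expression was measured in mESCs by SET-seq, ligation-based RNA-seq and tagmentation of RNA in vitro. The authors trimmed reads with Trim Galore 0.6.4, aligned them with STAR 2.5.4b to mm9 without mitochondrial and random chromosomes, and ran featureCounts 2.0.0 per fragment over refGene exons (25209 genes), ignoring strand and leaving out multi-mapping reads. Raw counts were deposited, with no normalization.

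From the counts without Rn45s, RPKM were calculated and genes were tested with edgeR 4.0.16 (filterByExpr, TMM, quasi-likelihood test, Benjamini-Hochberg adjustment) in R 4.3.3. The ligation comparison used 4 libraries. The in vitro comparison used 8 libraries in 4 groups and the mean of both in vitro groups. A gene was called with an adjusted p below 0.05 and an absolute log2 fold change above 1. Precision at these depths was tested on simulated data with 200 changed genes. At a 4-fold change, 83% were called in the ligation comparison (13035 genes) and 90% in the in vitro comparison (12631 genes). At 2-fold, which is the fold threshold itself, 28% and 32% were called, and 48% and 58% had an adjusted p below 0.05. Far more genes were called in the data than were changed in the simulation.

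Named genes had an RPKM of at least 10 in each library of the higher group, at least 300 bases of exon, at most 10% of them shared with another gene, and libraries that did not overlap. They were the 10 largest rises and falls against ligation-based RNA-seq, and the 10 higher and 10 lower in both with the largest smaller change. Of gene lists, every tested member was named up to 12, and otherwise the 4 highest, the largest rise and the largest fall. Genes outside these rules (Neat1, Firre, Pvt1, Miat, Tsix, Ftx, Xist, Srsf1, Srsf4, Srsf5, Clk1, Pnisr and H1f5) were chosen after their values were seen. Members and lists were chosen with earlier results of these data known. Of 299 listed symbols 292 were in the files.

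Exon windows of 31 bases, at every 10th start, were searched on both strands of NCBIM37, where 96.3% of 198509 introns had GT and AG ends and no exon passed a chromosome end. Feature classes used all tested genes. Alternatives were DESeq2 1.42.0, its size factors, library totals, no filter, Rn45s kept, the adjusted p alone, a replicate block, antibody libraries, single in vitro groups and each library left out. Intervals and floors cover counting error only. Calculations used Python 3.11.15. Genomic libraries, single cells and Aebp2 KO libraries were not used here. Some genes are not reported here.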

Additional observations from a re-analysis of the deposited data

Results flagged for a closer look

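Rn45s, the precursor of ribosomal RNA, was left out of every comparison. It nevertheless took 19.6% and 14.3% of the counts in the 2 SET-seq libraries of 10000 cells, above the 1.54% and 1.96% of the ligation-based libraries. The in vitro libraries of whole-cell RNA had 17.4% to 36.0%, and the 4 antibody libraries had 15.2% to 23.4%.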

How the results depend on the processing

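The 96 counts of calls were recomputed under the alternatives, and 90 stayed within 1.5 times the reported count. Against ligation-based RNA-seq, 1849 genes were lower with the antibody libraries added, and with those libraries in place of the 2 (chosen after seeing the data) 3934 genes were called, 1666 of them lower. With the adjusted p alone, 7098 genes were called against the in vitro libraries, 4014 higher and 3084 lower. Without 1 library at a time the calls ranged from 5370 to 6977 and from 4150 to 4764. The samples share only a replicate number, since deviations of same-numbered SET-seq and ligation-based libraries correlated at -0.11 over 12631 genes. A replicate block gave 6244 and 4308 calls, and a block with crossed numbers, chosen after seeing the data, 6178.

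Single genes turned direction with the antibody libraries. In place of the 2 libraries they gave log2 fold changes over ligation-based RNA-seq of 1.58 for Cycs, 0.44 for Eif1a (0.069 when added) and 0.40 for Psmd13. Over the in vitro libraries they gave 1.72 for 2410141K09Rik, -1.62 for Cd63, -0.41 for Ier2, -0.37 for Krt8, -1.79 for Meg3, 1.08 for Nxt2 (0.34 when added), -0.070 for Rpl41, -0.26 for Rpsa, 0.49 for Yes1 and 0.64 for Zfp62 (0.0051 when added). The cause was not tested.

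List medians over the in vitro libraries turned, with the antibody libraries, to -0.38 for nuclear lncRNAs, 0.32 for splicing regulators, -0.60 for ribosomal proteins, -2.0 for small nucleolar RNAs, -0.57 for immediate early genes and -0.066 for pluripotency genes. Those over ligation-based RNA-seq turned to -0.24 for ER genes, 0.79 for small nucleolar RNAs and 0.16 for pluripotency genes. With the length trend removed they turned to -1.08 for exported and snoRNA-host lncRNAs, -0.15 for proteasome subunits and -0.32 for ER genes over ligation-based RNA-seq, and to -0.26 for ribosomal proteins, -0.013 for ER genes and -0.15 for pluripotency genes over the in vitro libraries. With library totals they turned to -0.15 (exported lncRNAs), -0.14 (ER) and -0.0067 (pluripotency, in vitro). Members with few copied windows gave -0.15 for glycolysis and -0.21 for ER genes over ligation-based RNA-seq. Nuclear lncRNAs of at least 1 RPKM gave -0.66 over the in vitro libraries. Only 4 small nucleolar RNAs were tested with the antibody libraries in each comparison. The ER median over ligation-based RNA-seq ranged from -0.035 without SET-seq replicate 1 to 0.29 without SET-seq replicate 2, and that of numbered Zfp genes -0.25 over the in vitro libraries without SET-seq replicate 2.

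For genes of 1 exon with a mean RPKM of at least 5, the medians were 0.56 and -0.027. Within exon length classes, the Spearman correlation for the number of exons turned to 0.022, 0.050 and 0.061 against ligation-based RNA-seq and to 0.0076 and 0.087 against the in vitro libraries. That for intron length was 0.056 from 8 kb, and for copied windows 0.21 under 1 kb and 0.0075 from 1 to 2 kb.

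With 2 libraries a group, 48% and 58% of simulated 2-fold changes had an adjusted p below 0.05, which limits what small differences can show. The share called, 28% and 32% in the 2 comparisons, is also held down by the fold threshold, which lies at 2-fold.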
